A study of Mus musculus with 16 samples.

Results

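The genes described here are the matrix metalloproteases, their ADAMTS relatives and the tissue inhibitors of metalloproteases, in cells of the mouse small intestine. Members were all genes with the symbol Mmp or Adamts followed by a digit (Mmp7 was left out) or Timp1 to Timp4, each read from its brightest probe set with 1 symbol. This gave 43 genes of 22180, of which 21 are Mmp, 18 Adamts and 4 Timp genes. A filter on dim probe sets kept 40 of them and 18095 genes in all, and Mmp1a, Adamts3 and Adamts18 were not tested.

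Matrix metalloproteases are zinc enzymes that cut collagens, laminins, elastin and many cell surface proteins, and most are secreted as inactive precursors that need a further cut to work. The ADAMTS enzymes are secreted zinc proteases with thrombospondin repeats that process proteoglycans, procollagens and fibrillin microfibrils. Tissue inhibitors of metalloproteases block the active site of matrix metalloproteases, and Timp3 also inhibits ADAMTS enzymes. In the gut the stroma is known as the chief source of many of these genes.

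Gene expression was measured on 16 arrays with 1 colour. Adenoma cells came from 4 Apc+/1638N mice (P21, P23, P34 and P36, 6 arrays), whose germline Apc mutation is in 1 copy of the gene. Myofibroblasts from 3 wild-type mice (Pl_I, Pl_II and Pl_III) were profiled in co-culture with epithelium and in monoculture. Crypt organoids from 2 wild-type mice (P28 and P30) were likewise profiled in co-culture with myofibroblasts and in monoculture. All mice were C57Bl/6, labelled male and 8 to 10 weeks old. Co-cultured cells were kept apart by a membrane with 0.4 µm pores for 24 h, with the myofibroblasts on the insert and the organoids below it in Matrigel. The labels give 1 culture protocol, for wild-type crypts, and do not say whether the adenoma cells were grown in the same way. They name no driver or line, and do not say which epithelium met which myofibroblasts.

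The 2 arrays each of P21 and P34 were averaged, which left 14 biological samples of 9 animals. Levels are on the log2 scale, a difference is one of log2 levels with its SE from limma at the group sizes above, and a gene was called at an adjusted p under 0.05 over all genes tested. The level 2.67, under which the dimmest 30% of probe sets lay, is called the dim level below. The median of an array was 3.48 to 3.58. Precision is limited by how few arrays there are.

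The labelled cell types could be read from their markers. The mean of 12 epithelial markers lay between 9.04 and 10.03 in adenoma, 3.17 and 3.64 in fibroblasts, and 10.91 and 11.27 in the epithelial cultures. For fibroblasts, 14 markers averaged 3.06 to 3.29 in adenoma, 9.27 to 9.74 in fibroblasts and 3.35 to 3.5 in the epithelial cultures. The fibroblast samples also carried the 16 markers of macrophages and other immune cells, at a mean of 8.02 to 8.69 with 0 of 16 under the dim level, against 3.67 to 4.02 in all other samples. Neutrophil markers (10 genes) averaged 2.43 to 3.03 in every sample. In 4 of the 14 samples, the co- and monocultures of P28 and Pl_III, Xist was 7.57 to 8.29 while Eif2s3y, a gene of the Y chromosome, was 2.53 to 3.20, which goes against their male label. Calls of members that were lost without these animals are given with and without them. In bulk samples, fewer cells of a type and less RNA per cell cannot be told apart.

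Across all members, the first division was between fibroblasts and everything else. In 25 of the 40 tested members (62.5%) all 6 fibroblast samples lay above all 8 adenoma and epithelial samples, against 15.4% of all genes. These 25 were 13 Mmp, 9 Adamts and 3 Timp genes. In 1 member, Adamts15, all 6 fibroblast samples lay under all 8 others, against 12.0% of all genes. The heat map of all members shows this division. Timp2, and Timp3 in P21 and P23, were the members whose rise over epithelium monoculture adenoma cells shared most with fibroblasts. In P34 and P36 Timp3 was at 6.03 and 5.48, far under the fibroblasts.

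**Figure D1:**
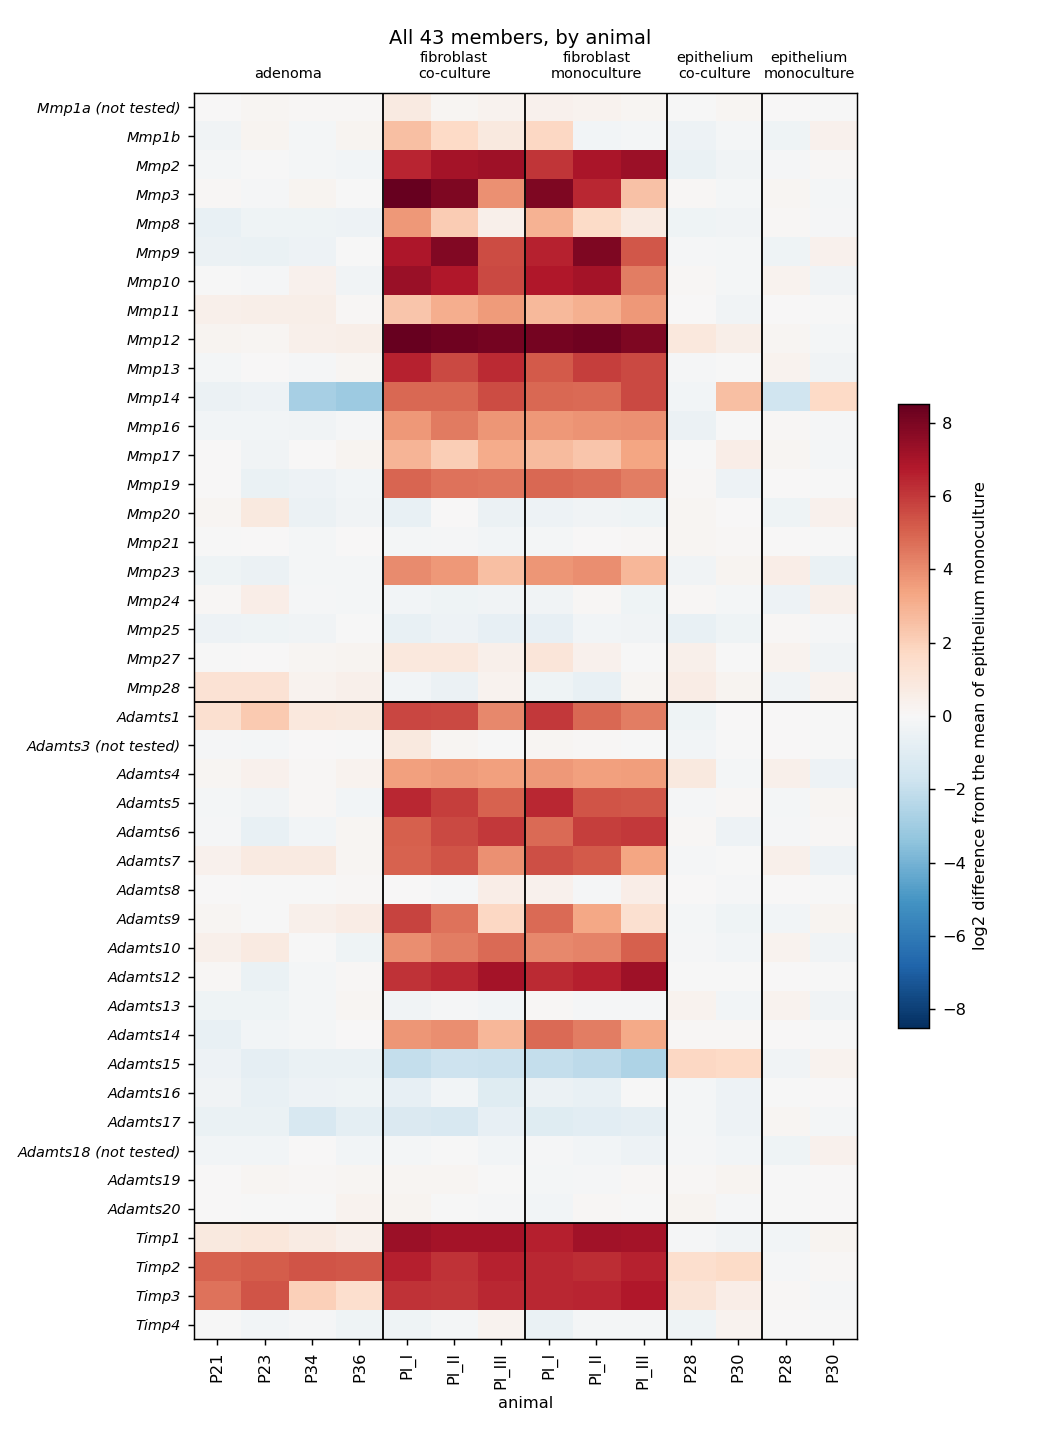
Heat map of all 43 members (rows) in the 14 samples (columns, named by animal), as the log2 difference of each sample from the mean of the 2 epithelium monocultures of that gene. Most Mmp and Adamts rows are red in the 6 fibroblast samples and pale elsewhere. Timp2 is deep red in the 4 adenoma samples and light red in both epithelium co-cultures. Adamts15 is blue in fibroblasts and light red in the co-cultures.

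Timp1, Timp2 and Timp3 were the members that rose in adenoma cells against normal epithelium in both of its cultures. Timp2 encodes the inhibitor that also docks pro-Mmp2 to the membrane protease Mmp14 on the cell surface, the step by which Mmp2 is activated. Timp2 had 9.97, 10.14, 10.34 and 10.23 in adenoma cells of P21, P23, P34 and P36. It had 11.56, 11.15 and 11.55 in co-cultured fibroblasts of Pl_I, Pl_II and Pl_III, against 11.41, 11.23 and 11.54 in their monocultures. In epithelium of P28 and P30 it had 6.38 and 6.57 in co-culture, against 4.86 and 5.10 in monoculture. Adenoma, fibroblasts, co-cultured and monocultured epithelium did not overlap: fibroblasts were highest, adenoma cells lay just under them, and co-cultured epithelium stood between adenoma and monocultured epithelium. The 2 fibroblast groups were the only neighbours in this order that overlapped.

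Timp2 rose in adenoma by 5.19 ± 0.16 against epithelium monoculture, which is 36.6-fold (adjusted p = 4.82e-10). Against co-cultured epithelium it rose by 3.69 ± 0.16, or 12.9-fold (adjusted p = 1.44e-08). Its level in adenoma was under that in fibroblast monoculture, with a difference of -1.22 ± 0.14 (adjusted p = 1.77e-05). The 14 fibroblast markers averaged 3.06 to 3.29 in adenoma and 3.45 to 3.5 in epithelium monoculture. In each adenoma animal 2 to 5 of them lay under the dim level, beside 2 and 3 in the epithelium monocultures of P28 and P30. Of 7 markers of smooth muscle and myofibroblasts, 1 was called higher and 2 lower in adenoma than in epithelium monoculture (42.9%, against 41.0% of all genes). The part of stromal cells in the level of Timp2 was not tested.

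Timp3, which is held in the extracellular matrix and also inhibits ADAM and ADAMTS enzymes, split the adenoma animals. Its level was 8.65 and 9.39 in P21 and P23, whose titles carry the mark T2 with no meaning given, and 6.03 and 5.48 in P34 and P36. It was 10.18, 10.10 and 10.46 in co-cultured fibroblasts, against 10.41, 10.52 and 10.82 in their monocultures. In epithelium it was 5.15 and 4.63 in co-culture, against 4.16 and 3.91 in monoculture. All 4 adenoma animals lay above all epithelial samples, the unmarked pair by little. Timp3 rose in adenoma by 3.35 ± 0.86 against epithelium monoculture (adjusted p = 0.00742), and by 1.72 without P21 and P23 (adjusted p = 3.15e-04). That call was lost without P28 and Pl_III (3.48, adjusted p = 0.0890), without the monoculture of P30 (3.23, adjusted p = 0.0534) and with the compared groups alone (adjusted p = 0.0562). Against co-cultured epithelium it rose by 2.50 ± 0.86 (adjusted p = 0.0415), a call that ended with the animal as a block (adjusted p = 0.0752) and in 16 of 24 alternatives, among them without P28 and Pl_III (2.76, adjusted p = 0.197). Without P21 and P23 that difference was 0.87.

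Timp1, the inhibitor that injured and inflamed tissue induces, was a fibroblast gene. It had 4.82, 4.95, 4.70 and 4.39 in the adenoma animals. It had 11.25, 11.06 and 11.02 in co-cultured fibroblasts, against 10.60, 11.11 and 11.01 in their monocultures. It had 3.85 and 3.69 in co-cultured epithelium, against 3.73 and 4.22 in epithelium monoculture. Adenoma cells lay above every epithelial sample and far under every fibroblast sample. Timp1 rose in adenoma by 0.74 ± 0.20 against epithelium monoculture (adjusted p = 0.00876, lost at 0.50 without P28 and Pl_III, adjusted p = 0.199, at 0.57 without P21 and P23, and without the monoculture of P28) and by 0.95 ± 0.20 against epithelium co-culture (adjusted p = 0.00272). Timp4, an inhibitor known mainly from heart and brain, lay between 2.27 and 3.17 in all 14 samples, near the dim level, and was called in 0 comparisons.

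**Figure D2:**
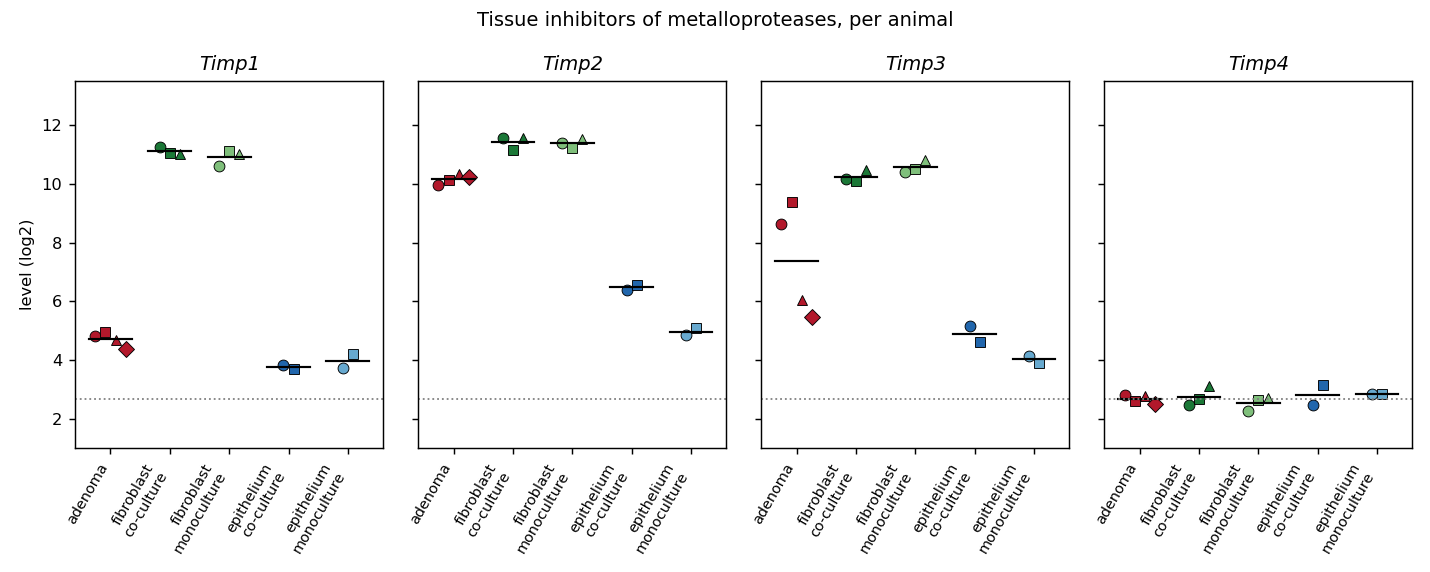
Log2 levels of the 4 Timp genes by animal (symbols) in the 5 groups, with the group mean as a black line and the dim level of 2.67 dotted. Timp2 sits between 9.97 and 10.34 in adenoma, just under the fibroblasts. Timp3 is split in adenoma, from 5.48 to 9.39. Timp1 is high in fibroblasts, and Timp4 is near the dim level in each group.

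Fewer members than genes in general were called between adenoma and epithelium. Mmp13, Mmp16 and Adamts5, among others, had group means under the dim level in adenoma and in both epithelial cultures. They were tested because of their fibroblast levels. Members so dim in the compared groups could hardly be called, which limits the shares and medians below. Of the 40 tested members, 3 rose and 2 fell in adenoma against epithelium monoculture, 12.5% against 41.0% of all genes. The 3 rises were the inhibitors Timp1, Timp2 and Timp3, the 2 falls were Adamts15 and Adamts17, and 0 of 20 Mmp genes were called. Against epithelium co-culture, 3 members rose (Timp1, Timp2 and Timp3) and 1 fell (Adamts15), 10.0% against 33.3% of all genes. Both comparisons share the adenoma samples. Among all genes that comparison called 3439 higher and 2583 lower, and with cyclic loess between arrays 2730 higher and 3110 lower. With it, 2 members were called higher (Timp1 and Timp2) and 3 lower (Adamts15, Mmp12 and Mmp14). The median difference of the 40 members was -0.01 against epithelium monoculture, beside -0.03 over all genes, and -0.03 against co-culture, beside 0.01.

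Adamts15, a protease that cleaves the proteoglycans versican and aggrecan, had its highest levels in co-cultured epithelium. It had 4.96, 4.63, 4.87 and 4.83 in the adenoma animals. It had 3.39, 3.63 and 3.55 in co-cultured fibroblasts, against 3.37, 3.17 and 2.82 in their monocultures. It had 7.16 and 7.07 in co-cultured epithelium of P28 and P30, against 5.08 and 5.74 in their monocultures. Adenoma cells lay under every epithelial sample and above every fibroblast sample. Adamts15 fell in adenoma by 2.29 ± 0.19 on the log2 scale against co-cultured epithelium, 4.90-fold (adjusted p = 4.18e-06). Against epithelium monoculture the fall was smaller, with a difference of -0.59 ± 0.19 (adjusted p = 0.0291), and 5 of 24 alternatives ended that call. Without the monoculture of P30 the difference was -0.26 (adjusted p = 0.396).

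Adamts17, a family member whose human counterpart is mutated in a short-stature syndrome of the fibrillin matrix, had 4.33, 4.33, 3.55 and 4.09 in adenoma. It had 3.68, 3.53 and 4.17 in co-cultured fibroblasts, against 3.88, 4.01 and 4.17 in fibroblast monoculture. It had 4.72 and 4.49 in epithelium co-culture, against 5.05 and 4.76 in epithelium monoculture. Epithelium lay above the other cells in each of its 4 samples. Adamts17 fell in adenoma against epithelium monoculture, with a difference of -0.82 ± 0.24 (adjusted p = 0.0140), a call lost without the monoculture of P28 and without P28 and Pl_III (-0.68 in both). In fibroblast monoculture it was also lower than in epithelium monoculture, with a difference of -0.88 ± 0.25 (adjusted p = 0.0104), a call lost without P28 and Pl_III (-0.81, adjusted p = 0.0788) and without the monoculture of P28 (-0.74). Its difference from co-cultured epithelium was -0.53 ± 0.24 (adjusted p = 0.111).

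Mmp14, the membrane-bound collagenase that activates pro-Mmp2, varied widely between animals outside the fibroblasts. It had 6.21, 6.25, 3.88 and 3.62 in adenoma cells of P21, P23, P34 and P36. It had 11.54, 11.57 and 12.23 in co-cultured fibroblasts, against 11.57, 11.51 and 12.28 in monoculture. It had 6.43 and 9.27 in co-cultured epithelium of P28 and P30, against 5.0 and 8.35 in monoculture. The epithelium of P30 lay above that of P28 in both cultures, by more than either animal's difference between cultures. The difference of adenoma from co-cultured epithelium was -2.86 ± 1.03, which did not pass (adjusted p = 0.0512) and passed with the animal as a block (adjusted p = 0.0133) and in 9 other alternatives. That from epithelium monoculture was -1.69 ± 1.03 (adjusted p = 0.225). It was called without the monoculture of P28 (-3.36, adjusted p = 0.0435), without P28 and Pl_III (-3.36, adjusted p = 0.0367) and without P21 and P23 (-2.93, adjusted p = 0.0461).

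Adamts1, a proteoglycan-cleaving enzyme, had 4.37, 5.23, 3.92 and 3.83 in adenoma, above every epithelial sample. It had 8.68, 8.60 and 7.11 in co-cultured fibroblasts, against 9.04, 7.91 and 7.37 in monoculture. It had 2.65 and 3.06 in co-cultured epithelium, against 3.06 and 2.96 in monoculture. The groups of adenoma and epithelium did not overlap, yet the spread among adenoma animals was wide. The difference of adenoma from epithelium monoculture was 1.33 ± 0.53 (adjusted p = 0.0672, and 0.0194 with the animal as a block). That from co-culture was 1.48 ± 0.53 (adjusted p = 0.0511, and 0.0140 with the block). With the same block Mmp11, a stromelysin-related secreted protease, was also called against co-culture (0.53 ± 0.16, adjusted p = 0.0267).

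Mmp28, a metalloprotease known from epithelia such as skin and lung, lay above 5 in every adenoma and epithelial sample. It had 6.66, 6.67, 5.74 and 5.90 in adenoma. It had 5.23, 4.94 and 5.76 in co-cultured fibroblasts, against 5.06, 4.80 and 5.62 in monoculture. It had 6.07 and 5.67 in co-cultured epithelium, against 5.12 and 5.75 in monoculture. The ranges of adenoma and epithelium overlapped. Mmp28 was higher in adenoma than in fibroblast monoculture by 1.08 ± 0.30 (adjusted p = 0.0105), a call lost without P21 and P23 (0.66) and without the fibroblast monoculture of Pl_II.

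**Figure D3:**
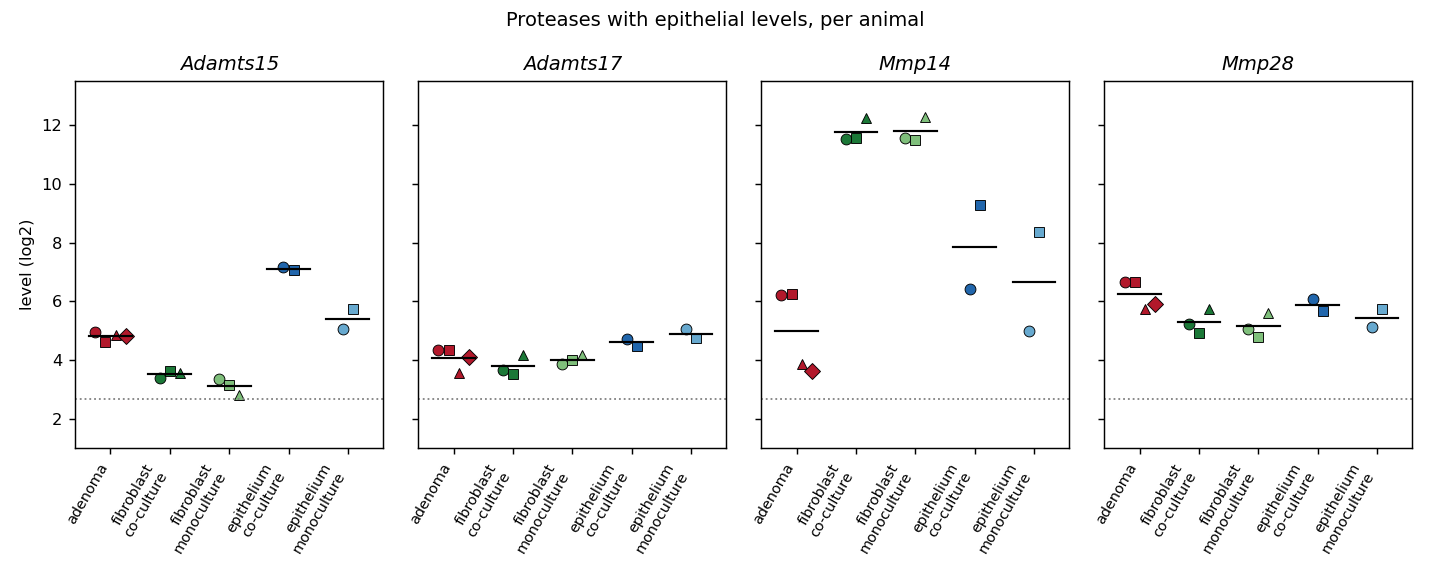
Log2 levels of Adamts15, Adamts17, Mmp14 and Mmp28 by animal (symbols) in the 5 groups, with group means as black lines and the dim level dotted. Adamts15 is highest in both epithelium co-cultures (7.16 and 7.07). Mmp14 runs from 3.62 to 9.27 over adenoma and epithelium. Mmp28 lies between 4.80 and 6.67 in all samples.

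Co-culture with myofibroblasts raised 2 members in epithelium, the inhibitor Timp2 and the protease Adamts15, and lowered 0. That is 5% of the 40 tested, against 4.03% of all genes, a share near the background. Timp2 rose by 1.5 ± 0.19, or 2.83-fold (adjusted p = 0.00181), with 1.53 in P28 and 1.48 in P30. Adamts15 rose by 1.71 ± 0.22, or 3.26-fold (adjusted p = 0.00205), with 2.08 in P28 and 1.33 in P30. Both animals moved up in both genes, and their co- and monocultures did not overlap. Without P28 and Pl_III, Timp2 differed by 1.48 (adjusted p = 0.0708) and Adamts15 by 1.33 (adjusted p = 0.0655). Fibroblast markers averaged 3.35 to 3.45 in the co-cultured epithelium and 3.45 to 3.5 in monoculture, and the part of such cells in these levels was not tested.

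With the animal as a block, 3 members were called higher, beside 5.03% of all genes (7.57% in either direction). The added gene was Mmp12, the macrophage elastase. Mmp12 had 3.31 and 2.89 in co-cultured epithelium of P28 and P30, against 2.60 and 2.21 in monoculture, a difference of 0.70 ± 0.20 (adjusted p = 0.0892, and 0.0251 with the block). These levels lay near the dim level of 2.67. Of the 16 immune markers, 2 were called higher in the same comparison, and their mean was 3.94 to 4.02 in co-culture and 3.76 to 3.92 in monoculture. Their part in the level of Mmp12 was not tested.

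No other member passed in epithelium in the main fit. Its SE and intervals leave out the pairing by animal and pool the spread of all 5 groups. The difference of Mmp14 was 1.17 ± 1.19, with a 95% interval from -1.43 to 3.77, although it was 1.42 in P28 and 0.92 in P30. That of Timp1 was -0.20, with 0.12 in P28 and -0.53 in P30. That of Timp3 was 0.85, with 0.99 in P28 and 0.71 in P30, and it did not pass (adjusted p = 0.756). Neither Mmp14 nor Timp3 was called with the animal as a block. Of the 40 members 10 were higher in both animals (25%, against 32.5% of all genes) and 8 lower in both (20%, against 35.5%). The plot of differences shows most members close to 0.

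**Figure D4:**
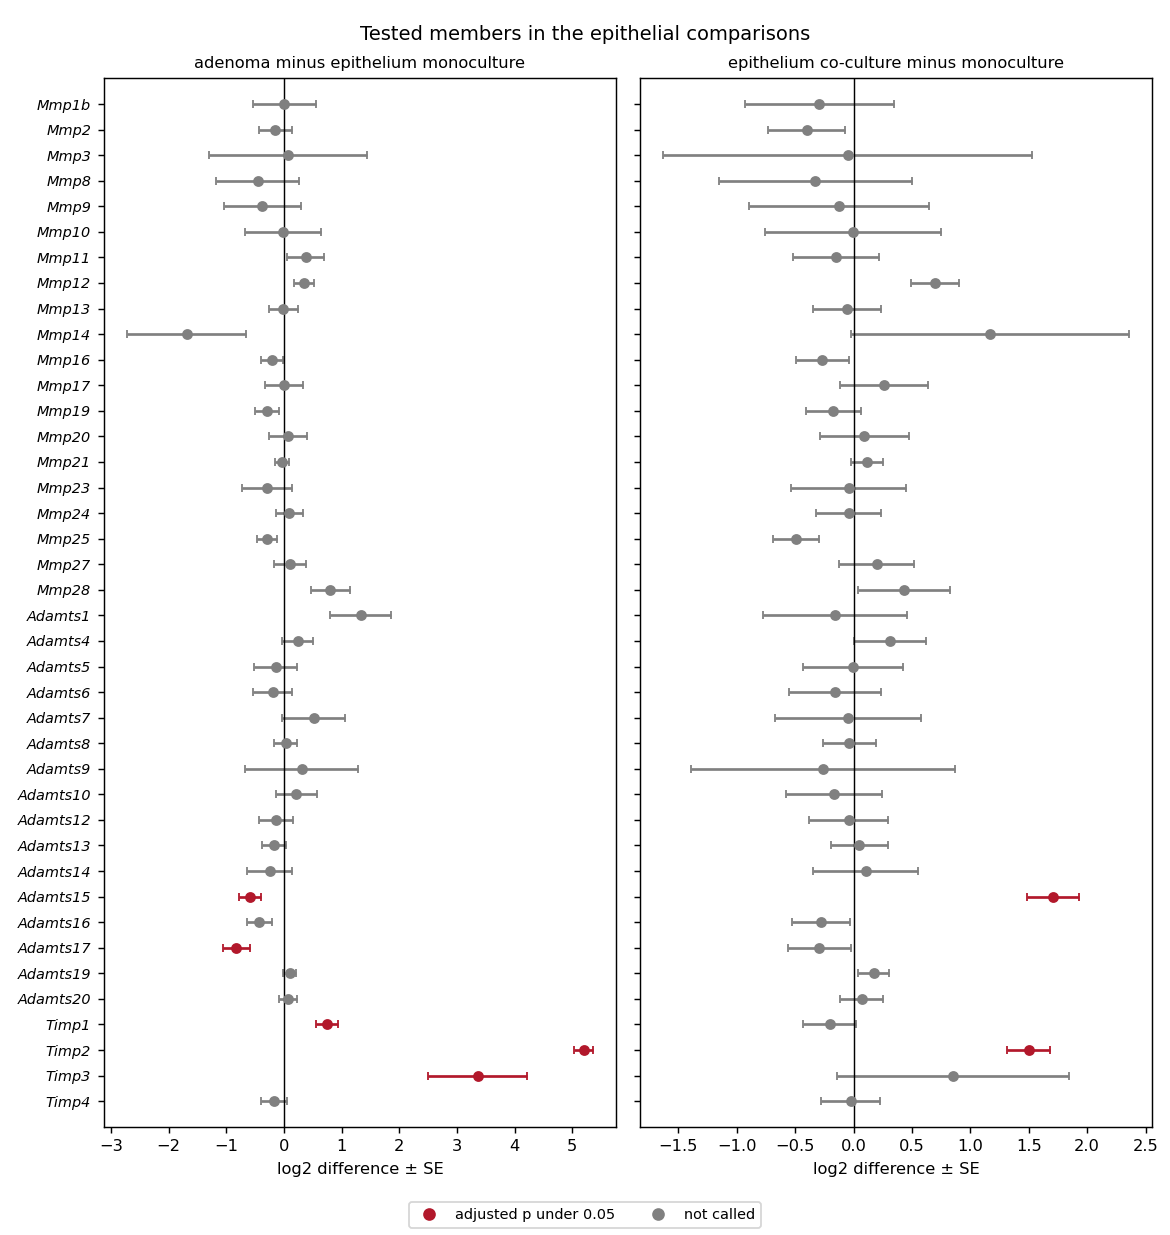
Log2 differences ± SE of the 40 tested members for adenoma minus epithelium monoculture (left, n = 4 and 2) and epithelium co-culture minus monoculture (right, n = 2 and 2). Red points passed an adjusted p of 0.05. On the left these are Timp1, Timp2, Timp3, Adamts15 and Adamts17, and on the right Timp2 and Adamts15. The x axes differ between the panels.

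In fibroblasts co-culture with epithelium called 0 of 40 members by limma, beside 0.00553% of all genes (1 gene). At an unadjusted p under 0.05 there were 3 members, beside 513 genes or 2.84% of all. With the animal as a block 0 members were called, beside 4 genes (0.0221%). The 3 members were Mmp13, Mmp1b and Adamts15. Mmp13, collagenase 3, had 9.15, 8.22 and 8.90 in co-culture of Pl_I, Pl_II and Pl_III, against 7.82, 8.43 and 8.19 in monoculture, a difference of 0.61 ± 0.24 (unadjusted p = 0.0244, limma). It was higher in 2 of the 3 animals. Mmp1b, a rodent relative of the human interstitial collagenase, had 4.45, 3.54 and 2.72 in co-culture, against 3.65, 1.66 and 1.67 in monoculture (1.24 ± 0.52, unadjusted p = 0.0352, limma). Adamts15 differed by 0.41 ± 0.18 (unadjusted p = 0.0472, limma), at levels a good deal lower than in epithelium.

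Stromelysin 1, the Mmp3 product, cuts a broad range of matrix proteins and activates other proteases. Mmp3 had 11.47, 10.83 and 6.80 in co-culture of Pl_I, Pl_II and Pl_III, against 10.85, 9.32 and 5.35 in monoculture. It was higher in co-culture in each of 3 animals, by 0.62, 1.51 and 1.45, while the animals differed from each other by far more. The difference of 1.19 ± 1.29 did not pass in the main fit (95% interval from -1.63 to 4.01). This SE and interval leave out the pairing, so they hold the spread between animals. With the animal as a block Mmp3 was not called either. Of the 40 members 6 (15%) were higher in all 3 animals, against 15.3% of all genes, and 4 (10%) were lower in all 3, against 14.1%. Timp2 differed by 0.03, with a 95% interval from -0.30 to 0.36.

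The co-culture response of epithelium exceeded that of fibroblasts for 1 of 40 members (2.50%, against 0.834% of all genes, or 1.11% called in either direction). That was Timp2, with 1.5 in epithelium and 0.03 in fibroblasts, a difference of responses of 1.47 ± 0.24 (adjusted p = 0.0156). Without P28 and Pl_III it was 1.44 (adjusted p = 0.197), and the call was also lost without the monoculture of P28 (0 members) or the co-culture of P30 (0 members). For Adamts15 the difference was 1.3 ± 0.29 (adjusted p = 0.0576), and with the animal as a block 3 members passed, beside 3.42% of all genes: Timp2, Adamts15 (adjusted p = 0.0434) and Mmp3 (-1.24, adjusted p = 0.0496). Timp3 was higher in co-culture in both epithelial animals and lower in all 3 fibroblast animals, with differences of -0.23, -0.42 and -0.36, and its difference of responses did not pass (adjusted p = 0.797).

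Fibroblasts held most of the proteases. In fibroblast monoculture 24 of 40 members were higher than in epithelium monoculture and 2 lower (Adamts15 and Adamts17), 65.0% in all against 50.7% of all genes, and the 24 rises are 60% against 26.5%. The median difference was 3.54, beside -0.02 over all genes. Adenoma set against fibroblast monoculture gave 2 members higher (Adamts15 by 1.70 ± 0.17 and Mmp28) and 25 lower, 67.5% against 46.5% of all genes. The 2 comparisons share the fibroblast samples. Where a gene lay under the dim level in epithelium, its difference was limited by the lower end of the array's scale.

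Gelatinases, which cut denatured collagen and basement membrane, were high in each fibroblast sample. Mmp2 had 9.63, 10.20 and 10.36 in co-cultured fibroblasts of Pl_I, Pl_II and Pl_III, against 9.22, 10.08 and 10.41 in monoculture, and between 2.62 and 3.27 in the 8 adenoma and epithelial samples. Mmp9 had 10.43, 11.43 and 9.08 in co-culture, against 10.05, 11.51 and 8.79 in monoculture, and between 3.00 and 3.88 elsewhere. Fibroblast monoculture exceeded epithelium monoculture by 6.75 ± 0.30 for Mmp2 and by 6.58 ± 0.70 for Mmp9 (adjusted p = 2.75e-09 and 7.10e-06). Mmp9 is also made by macrophages, and the immune markers were high in the same samples; their part in its level was not tested.

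A cluster of 9 Mmp genes lies in 1 row on chromosome 9, in the order Mmp13, Mmp12, Mmp1b, Mmp3, Mmp1a, Mmp10, Mmp8, Mmp27 and Mmp20 by the RefSeq table of assembly GRCm38.p6. Of the 8 tested (Mmp1a was not), 4 (Mmp3, Mmp10, Mmp12 and Mmp13) were called higher in fibroblast than in epithelium monoculture, beside 26.5% of all genes. Mmp12 had 10.89, 10.67 and 10.53 in co-cultured fibroblasts, against 10.51, 10.70 and 10.31 in monoculture, and between 2.21 and 3.31 in the other 8 samples. Mmp10, stromelysin 2, had 10.37, 9.89 and 8.64 in co-culture, against 9.88, 10.12 and 7.41 in monoculture, and at most 3.44 elsewhere. Mmp3 and Mmp10 were both lowest in Pl_III, whereas Mmp12 was alike in the 3 animals.

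The differences of fibroblast from epithelium monoculture were 8.11 ± 0.19 for Mmp12 (adjusted p = 1.85e-11), 5.56 ± 0.26 for Mmp13, 6.08 ± 0.69 for Mmp10 and 5.62 ± 1.44 for Mmp3 (adjusted p = 0.00603). The mean level of the 16 immune markers was 8.23, 8.05 and 8.69 in co-culture of Pl_I, Pl_II and Pl_III, against 8.02, 8.07 and 8.69 in monoculture. Mmp12 is best known from macrophages, and the part of such cells in its level was not tested. Mmp8, the collagenase of neutrophils, had 6.55, 5.01 and 3.26 in co-culture, against 5.78, 4.49 and 3.62 in monoculture, and at most 2.95 elsewhere. It was called against adenoma (-2.24 ± 0.63, adjusted p = 0.0114), and the call was lost without P21 and P23 (-2.18) and without the monoculture of Pl_I (-1.66). The 10 neutrophil markers had a mean of 2.43 to 3.03 per fibroblast sample, but not all were dim. S100a8, a calprotectin subunit, had 4.95, 4.50 and 2.69 in co-culture of Pl_I, Pl_II and Pl_III, against 4.36, 3.31 and 2.13 in monoculture. Csf3r, the receptor of granulocyte colony-stimulating factor, had 4.80, 3.87 and 3.36 in co-culture, against 4.19, 3.91 and 3.36 in monoculture. Both were lowest in Pl_III, as Mmp8 was. So were S100a9, Cxcr2, Camp and Ngp in both cultures. Elane, Mpo and Ltf were instead highest in Pl_III in co-culture, and Retnlg in monoculture. Of the 8 neutrophil markers tested, 0 were called between fibroblast and epithelium monoculture, against 50.7% of all genes. The part of neutrophils in the level of Mmp8 was not tested.

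Of the other genes in that row, Mmp27 lay between 3.06 and 4.15 in fibroblasts, and Mmp20, the enamel protease, between 2.39 and 3.03. Mmp1a, which was not tested, lay between 1.79 and 2.43 in fibroblasts and at most at 1.82 in the other samples. Mmp1b lay at 2.72 or above in the co-cultured fibroblasts and the monoculture of Pl_I, and under it in the other samples.

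**Figure D5:**
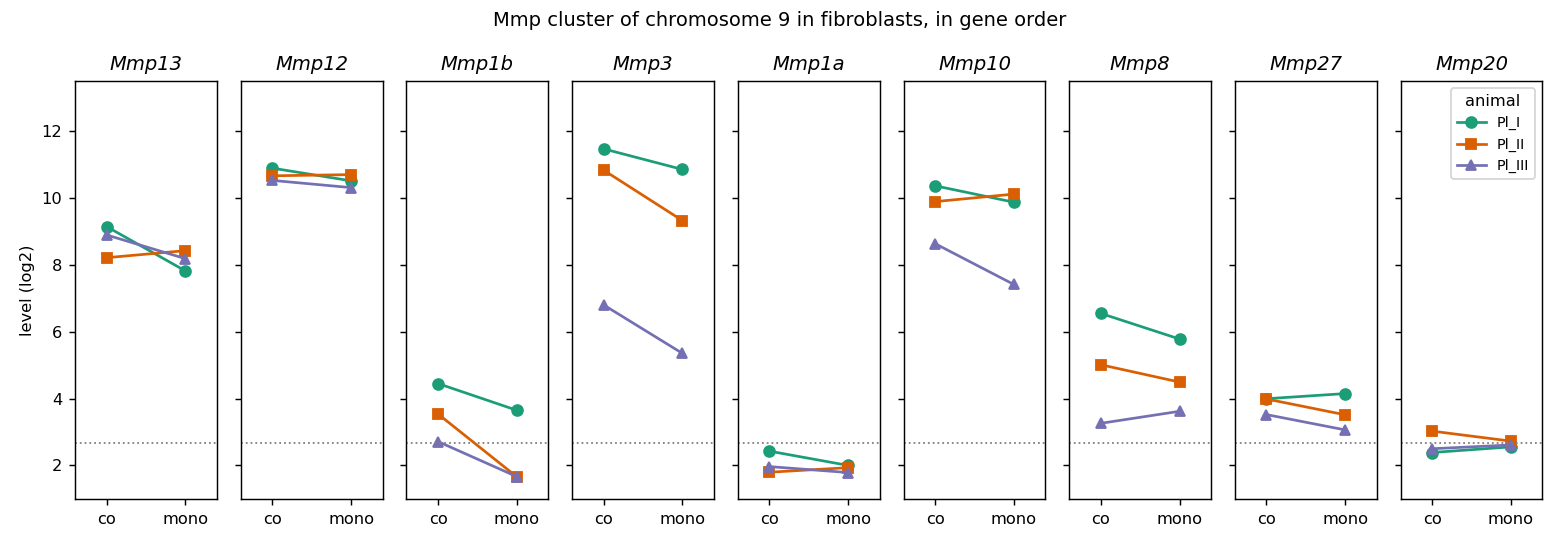
Log2 levels of the 9 Mmp genes of chromosome 9, in gene order, in co-culture (left) and monoculture (right) of the 3 fibroblast animals, with the dim level dotted and lines joining the cultures of 1 animal. Mmp12 and Mmp13 are high in all 3 animals. Mmp3 runs from 5.35 to 11.47, and Mmp3, Mmp8 and Mmp10 are lowest in Pl_III. Mmp1a and Mmp20 lie near the dim level.

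Promoters of that row and of the adenoma inhibitors are shown for their letters. The table held 31 promoters of 29 of the 43 members (RefSeq, GRCm38.p6), each with 250 bases before and 50 after the start. The AP-1 letters TGANTCA stood on either strand of 7 of the 31 (22.6%) and of 7.81% of all 32851 promoters. The TATA letters TATAAA stood in 10 (32.3%) and in 13.6%, and the ETS letters AGGAAG in 14 (45.2%) and in 35.4%. All 7 members with the AP-1 letters (Mmp1a, Mmp1b, Mmp3, Mmp10, Mmp12, Mmp13 and Mmp20) belong to the row on chromosome 9, and each also held the TATA letters. These neighbours are known as tandem duplicates and are not independent of each other. In these promoters the 2 sets of letters did not overlap. Capitals mark both sets of letters below, read 5′ to 3′ on the gene's strand. The first 4 belong to the row and the last 2, of Timp2 and Timp3, hold neither.
Mmp13, chr9:7272264-7272563, plus strand: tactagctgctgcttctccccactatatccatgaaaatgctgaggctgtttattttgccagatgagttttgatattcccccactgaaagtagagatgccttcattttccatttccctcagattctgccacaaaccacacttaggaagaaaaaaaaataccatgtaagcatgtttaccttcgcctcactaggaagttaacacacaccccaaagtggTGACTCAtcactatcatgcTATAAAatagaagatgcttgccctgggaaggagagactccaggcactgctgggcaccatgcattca
Mmp12, chr9:7347124-7347423, plus strand: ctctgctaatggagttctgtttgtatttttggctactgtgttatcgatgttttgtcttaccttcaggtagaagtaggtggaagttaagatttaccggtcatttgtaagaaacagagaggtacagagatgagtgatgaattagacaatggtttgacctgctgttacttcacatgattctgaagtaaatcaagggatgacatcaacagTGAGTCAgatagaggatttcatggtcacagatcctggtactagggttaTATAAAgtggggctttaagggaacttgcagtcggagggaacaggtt
Mmp3, chr9:7445572-7445871, plus strand: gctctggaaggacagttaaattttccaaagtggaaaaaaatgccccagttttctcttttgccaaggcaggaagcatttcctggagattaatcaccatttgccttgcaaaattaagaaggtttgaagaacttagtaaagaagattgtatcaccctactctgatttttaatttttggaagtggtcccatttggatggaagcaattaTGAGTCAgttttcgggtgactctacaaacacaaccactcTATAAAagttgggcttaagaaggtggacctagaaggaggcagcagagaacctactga
Mmp10, chr9:7502092-7502391, plus strand: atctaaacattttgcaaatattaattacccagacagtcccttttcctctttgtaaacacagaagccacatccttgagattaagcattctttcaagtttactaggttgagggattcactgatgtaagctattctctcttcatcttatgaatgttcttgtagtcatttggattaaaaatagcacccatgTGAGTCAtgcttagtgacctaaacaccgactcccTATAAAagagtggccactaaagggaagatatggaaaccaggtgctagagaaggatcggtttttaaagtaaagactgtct
Timp2, chr11:118355362-118355661, minus strand: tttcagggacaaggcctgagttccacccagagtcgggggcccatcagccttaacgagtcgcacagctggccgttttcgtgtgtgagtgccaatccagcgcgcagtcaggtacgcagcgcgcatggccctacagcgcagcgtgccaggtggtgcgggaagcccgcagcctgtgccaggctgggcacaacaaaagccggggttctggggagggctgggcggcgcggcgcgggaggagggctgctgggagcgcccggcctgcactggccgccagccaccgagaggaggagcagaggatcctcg
Timp3, chr10:86300162-86300461, plus strand: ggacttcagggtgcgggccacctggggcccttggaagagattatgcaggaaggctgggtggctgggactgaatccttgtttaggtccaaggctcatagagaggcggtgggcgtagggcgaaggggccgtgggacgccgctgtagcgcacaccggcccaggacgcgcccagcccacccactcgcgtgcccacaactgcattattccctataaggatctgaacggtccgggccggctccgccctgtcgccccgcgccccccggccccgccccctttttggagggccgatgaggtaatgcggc

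Counted from the start as 0, the AP-1 letters began at -35 in Mmp13, -44 in Mmp12, -46 in Mmp3 and -63 in Mmp10. Mmp1a at -73, Mmp1b at -93 and Mmp20 at -95 hold them too. The TATA letters began at -16 in Mmp13, 4 in Mmp12, -7 in Mmp3 and -29 in Mmp10. Distances therefore depend on where each start was annotated. In fibroblasts Mmp1a and Mmp20 lay near or under the dim level, while Mmp1b ran from 1.66 to 4.45. A match is a description of these letters and not of a bound site. Mmp12 has a second start in the table whose promoter holds neither set of letters.

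Further membrane proteases were also higher in the fibroblasts. Mmp16, a membrane-anchored activator of pro-Mmp2, had 6.12, 6.81 and 6.20 in co-cultured fibroblasts, against 6.10, 6.27 and 6.35 in monoculture, and at most 2.55 in adenoma and epithelium. Mmp17, anchored by a lipid tail, had 5.74, 4.94 and 6.02 in co-culture, against 5.58, 5.22 and 6.24 in monoculture, and at most 3.45 elsewhere. Mmp23, a short membrane protease, had 8.17, 7.87 and 6.71 in co-culture, against 7.88, 8.13 and 6.98 in monoculture, and at most 4.71 elsewhere. Each of these stood well apart from the epithelial cells, with differences from epithelium monoculture of 3.81 ± 0.20, 2.81 ± 0.34 and 3.5 ± 0.45.

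Secreted Mmp19, which cuts basement membrane proteins, had 8.70, 8.36 and 8.33 in co-culture, against 8.61, 8.52 and 8.11 in monoculture, and at most 3.82 elsewhere. Mmp11 had 6.54, 7.27 and 7.83 in co-culture, against 6.97, 7.21 and 7.92 in monoculture, and at most 4.72 elsewhere. Both differed from epithelium monoculture, by 4.66 ± 0.22 and 3.16 ± 0.34. A second probe set of Mmp11 averaged 5.71 in fibroblast monoculture and 4.02 in epithelium monoculture, so its probe sets disagree on the size. Mmp14 did so by 5.11 ± 1.09 (adjusted p = 0.00177), and by 3.19 without P28 and Pl_III, where the call was lost.

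Of the 16 ADAMTS proteases tested, 9 were called higher in fibroblast than in epithelium monoculture, beside 26.5% of all genes. Those that cut versican and aggrecan include Adamts1, Adamts4, Adamts5 and Adamts9. Adamts4 had 6.84, 6.98 and 6.85 in co-culture, against 7.04, 6.81 and 6.85 in monoculture, and at most 4.15 in adenoma and epithelium. Adamts5 had 8.85, 8.27 and 7.44 in co-culture, against 8.85, 7.77 and 7.68 in monoculture, and at most 2.58 elsewhere. Adamts9 had 9.0, 7.86 and 5.02 in co-culture, against 8.06, 6.52 and 4.61 in monoculture, and at most 3.89 elsewhere. Adamts4 was even across animals, whereas Adamts9 was lowest in Pl_III and higher in co-culture in all 3 animals, by 0.94, 1.34 and 0.40. Fibroblast monoculture exceeded epithelium monoculture by 3.57 ± 0.28 for Adamts4, 5.68 ± 0.39 for Adamts5, 5.10 ± 0.56 for Adamts1 and 3.17 ± 1.03 for Adamts9 (adjusted p = 0.0224, lost in 4 of 24 alternatives).

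Adamts7 and Adamts12, a pair that degrades the cartilage protein Comp, were both fibroblast genes, with Pl_III at opposite ends. Adamts7 had 8.14, 8.46 and 7.02 in co-culture of Pl_I, Pl_II and Pl_III, against 8.56, 8.35 and 6.50 in monoculture, and at most 3.89 elsewhere. Adamts12 had 9.32, 9.59 and 10.28 in co-culture, against 9.56, 9.82 and 10.44 in monoculture, and at most 3.33 elsewhere. Pl_III was lowest for Adamts7 and highest for Adamts12. They exceeded epithelium monoculture by 4.69 ± 0.57 and 6.73 ± 0.31.

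Adamts6 and Adamts10, a related pair of which Adamts10 acts on fibrillin microfibrils, were highest in Pl_III in both cultures. Adamts6 had 8.18, 8.72 and 9.12 in co-culture, against 7.98, 8.98 and 9.15 in monoculture, and at most 3.28 elsewhere. Adamts10 had 7.18, 7.56 and 8.07 in co-culture, against 7.32, 7.48 and 8.29 in monoculture, and at most 4.02 elsewhere. The differences from epithelium monoculture were 5.57 ± 0.36 and 4.47 ± 0.38. Adamts14, which trims the N-terminal propeptide of procollagens, had 7.48, 7.69 and 6.55 in co-culture, against 8.54, 8.07 and 6.97 in monoculture, and at most 3.87 elsewhere. It was lower in co-culture in all 3 animals, with differences of -1.06, -0.38 and -0.42, and did not pass (unadjusted p = 0.119, limma). Its fibroblast excess was 4.11 ± 0.41 on this probe set, while the second probe set of Adamts14 averaged 4.19 in fibroblast monoculture and 3.31 in epithelium monoculture, so the probe sets disagree on its size.

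Animal Pl_III thus stood apart from Pl_I and Pl_II in both cultures for several members. Among others it was lowest in both cultures for Mmp3, Mmp8, Mmp9, Mmp10, Adamts5, Adamts7 and Adamts9, and highest in both for Mmp11, Mmp14, Adamts6, Adamts10 and Adamts12. Pdgfra, a receptor of subepithelial fibroblasts, was 7.63 and 7.70 in co- and monoculture of Pl_III, and between 11.06 and 11.44 in the other 4 fibroblast samples, while Col1a1 was between 12.19 and 12.55 in all 6. Other fibroblast markers went both ways in Pl_III. Postn, Pdgfrb and Fap were highest there in both cultures, while Twist1, Prrx1 and Col6a1 were lowest in both. The mean of the 14 fibroblast markers was 9.27 and 9.34 in co- and monoculture of Pl_III, and 9.36 to 9.74 in the other 4 fibroblast samples. The mean of the 7 markers of smooth muscle and myofibroblasts was 9.80 and 9.84 in co- and monoculture of Pl_III, and 9.10 to 9.20 in the other 4 fibroblast samples. The mean of the 16 immune markers was also highest in Pl_III, at 8.69 in both cultures. Single immune markers went both ways. Ptprc, C1qa, C1qb and C1qc were highest there in both cultures, while Cd14 was lowest in both. The part of these differences in the members' levels was not tested.

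The tested members called in 0 comparisons numbered 12: Mmp1b, Mmp20, Mmp21, Mmp24, Mmp25, Mmp27, Adamts8, Adamts13, Adamts16, Adamts19, Adamts20 and Timp4. They lay between 1.45 and 4.51 in all samples. Among them Adamts13, the protease that trims von Willebrand factor, lay between 3.74 and 4.42 in every sample. Adamts8 and Adamts15 are neighbours on chromosome 9, and Adamts1 and Adamts5 on chromosome 16, in the RefSeq table. Adamts8 stayed between 2.46 and 3.12, while its neighbour ran from 2.82 to 7.16. In the same table Timp1, Timp3 and Timp4 lie next to the synapsin genes Syn1, Syn3 and Syn2.

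Genes that switch the proteases on, bind them or are cut by them were counted from lists. Of 20 activators and cell surface regulators, 4 were higher and 0 lower in co-cultured epithelium (20.0%, against 4.03% of all genes). Plat, the tissue plasminogen activator, rose to a mean of 8.82 in co-culture, against 6.34 in monoculture (2.48 ± 0.25, adjusted p = 5.38e-04). Plaur, the urokinase receptor, rose by 1.94 ± 0.25, the integrin subunit Itgav by 1.31 ± 0.26 and the Mmp9-docking receptor Cd44 by 1.70 ± 0.38. In adenoma 6 of the 20 were higher and 5 lower than in epithelium monoculture (55.0%, against 41.0%). Pcsk5, a convertase of precursor proteins, fell by 5.41 ± 0.34 on the log2 scale and Lrp1, the endocytic receptor that clears proteases and inhibitors, by 4.25 ± 0.29, while Cd44 rose by 3.78 ± 0.33 and Plaur by 2.32 ± 0.22. In fibroblasts 0 of 20 were called by limma after co-culture, with 1 at an unadjusted p under 0.05.

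Of 16 ADAM proteases and sheddases, 1 was higher and 1 lower in co-cultured epithelium (12.5%, against 4.03%). Adam8, a membrane protease of leukocytes and tumours, rose by 2.49 ± 0.62 (adjusted p = 0.0471), and Mep1a, a meprin subunit of the brush border, fell by 1.25 ± 0.25. In adenoma 4 were higher and 3 lower than in epithelium monoculture (43.8%, against 41.0%). Mep1b, the other meprin subunit, averaged 3.36 in adenoma and 10.70 in epithelium monoculture (-7.34 ± 0.27), and Adam17, the main sheddase of EGF receptor ligands, rose by 0.77 ± 0.16.

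Of the 6 tested ADAMTS-like proteins, which carry the ancillary domains without the protease, 1 was higher and 1 lower in co-culture (33.3%, against 4.03%). Adamtsl4 rose by 1.01 ± 0.22 and Papln, papilin of basement membranes, fell by 1.80 ± 0.31. In adenoma 2 were higher (Adamtsl4 by 3.06 ± 0.19 and Thsd4 by 1.41 ± 0.17) and 2 lower (Papln by -4.31 ± 0.27 and Adamtsl5 by -2.49 ± 0.25) than in monoculture (66.7%, against 41.0%). Co-culture and adenoma share the epithelium monoculture samples in these comparisons.

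Of 17 tested substrates other than collagens, 1 was higher in co-cultured epithelium (5.88%, against 4.03%) and 4 were higher and 1 lower in adenoma than in monoculture (29.4%, against 41.0%). Nid1, nidogen of basement membranes, averaged 8.66 in epithelium co-culture and 5.29 in monoculture (3.37 ± 0.31, adjusted p = 4.11e-04). In adenoma Nid1 averaged 3.79, a difference from monoculture of -1.5 ± 0.27. Fn1, fibronectin, averaged 9.55 in adenoma and 3.36 in epithelium monoculture (6.19 ± 0.42, adjusted p = 3.16e-07), and perlecan, the product of Hspg2, rose by 1.46 ± 0.21.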

How the data were processed

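The authors deposited log2 levels of probe sets. The submitters' processing notes name RMA for them and give no version. RMA makes arrays alike in overall distribution and compresses low values, so a shift of most transcripts would be hidden. The array library and genome build behind the probe sets were not given in the sources used here. Each array took 150 ng of RNA, per the labels' protocols. The table held 41345 probe sets on 16 arrays, between 0.54 and 13.39.

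Samples were grouped by their labels. Repeat arrays of adenoma animals P21 and P34 were averaged (SD of their difference over probe sets 0.42 and 0.43). The third fibroblast monoculture array names different animals in its title (Pl_III) and source (Pl_II), and the title was followed. Its high Xist and low Eif2s3y were those of the Pl_III co-culture and not of Pl_II. Pdgfra was 7.70 in it, beside 7.63 in the Pl_III co-culture and 11.06 and 11.44 in mono- and co-culture of Pl_II. Separate animals are named per sample within each group. The p-values of the main fit rest on a spread pooled over all 5 groups and moderated by limma. It takes co- and monocultures of an animal as independent.

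Gene names came from GEO's annotation of the platform: 23521 probe sets had 1 symbol, 1814 several and 16010 were unnamed here. A gene was read from its brightest probe set and tested where its highest group mean passed the level under which 30% of probe sets lay on average. A mean per group was fitted to all 14 samples with limma 3.58.1 in R 4.3.3 (2-sided, total degrees of freedom 11.7, Benjamini-Hochberg over 18095 genes). Pooling assumes that groups vary alike. The functions were tested on simulated data. Promoters came from RefSeq (GRCm38.p6), whose table was otherwise used only for gene names and order. Sequences of proteins were not used here, so the planned search of them was not run.

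Members and gene lists were chosen with earlier results of these data known. Values per sample are given for members called in at least 1 comparison, other members by range, and of each further list at most the 4 genes with the smallest p in a comparison. Pdgfra, Col1a1, Postn, Pdgfrb, Fap, Twist1, Prrx1, Col6a1, S100a8 and Csf3r were named after their values were seen. The same holds for the other neutrophil and immune markers named for Pl_III. Co- and monocultures of an animal are paired by their labels: deviations from group means correlated within an animal, with r = 0.33 in epithelium, 0.62 in Pl_I, 0.51 in Pl_II and 0.79 in Pl_III. An alternative fit took the animal as a replicate block, which the main one did not. Other alternatives were 2 other filters, the compared groups only, cyclic loess, a trended robust prior, the mean of all probe sets, first adenoma arrays only, leaving out P28 with Pl_III or P21 with P23, and leaving out each sample.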

Additional observations from a re-analysis of the deposited data

Results flagged for a closer look

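Timp2 responded differently to co-culture in the 2 cell types, by a test of that difference. It rose by 1.5 in epithelium and differed by 0.03 in fibroblasts, a difference of 1.47 ± 0.24 (limma, adjusted p = 0.0156), with both epithelial animals higher and the fibroblast animals at 0.15, -0.08 and 0.01. Timp2 was already at 11.23 to 11.54 in fibroblast monoculture. Among the 4 adenoma animals, the gap of the highest or lowest animal was compared with the range for 40 members, and 0 passed Dixon's critical value for 4 samples. This ratio looks for 1 animal apart and cannot pass for a split of 2 against 2. Timp3 had such a split, with 8.65 and 9.39 in P21 and P23 and 6.03 and 5.48 in P34 and P36.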

How the results depend on the processing

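The comparisons were recomputed under 24 alternatives. Of 65 called differences of members, 51 kept their call in each alternative and 0 turned direction; the other 14 were lost in at least 1. The cause of each change below was not tested, apart from fewer samples where animals were left out. In epithelium co-culture against monoculture, the 2 calls became 0 with the 4 arrays of the compared groups alone and 0 without P28 and Pl_III; all genes called numbered 729, against 1370 with the replicate block, 0 with the compared groups alone, 69 without P28 and Pl_III, and 209 to 722 when 1 sample was left out. In adenoma against epithelium monoculture, leaving out 1 sample gave 3 to 6 members, with 3 without the monoculture of P30. For the difference of responses, 1 member became 2 with a 50th percentile filter, 3 with the replicate block, 0 without P28 and Pl_III, and 0 to 2 when 1 sample was left out; all genes numbered 200, against 619 with the block, 5 without P28 and Pl_III, and 56 to 172 when 1 sample was left out. Adenoma against epithelium co-culture called 6022 genes, against 4006 without P28 and Pl_III and 3889 without the co-culture of P28. The 1 gene called in fibroblast co-culture became 4 with the block and 0 in 18 others. The replicate block added Mmp12 in epithelium co-culture, Adamts1 in adenoma against epithelium monoculture (6 called, against 5), Adamts1, Mmp11 and Mmp14 in adenoma against epithelium co-culture, where it ended the call of Timp3 (6 called, against 4), Mmp8 and Mmp27 between fibroblast and epithelium monoculture (28 called, against 26), and Adamts15 and Mmp3 in the difference of responses; it changed no other call of a member. Dim members near 2.67 are limited by the lower end of the array's scale, and 2 animals per epithelial group limit the precision of each difference from them.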

Other observations

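Related proteases and regulators also differed between fibroblast and epithelium monoculture. Of the 16 ADAM proteases and sheddases tested, 9 were higher and 2 lower (68.8%, against 50.7% of all genes). Adam19, a membrane sheddase, averaged 9.21 in fibroblast and 2.67 in epithelium monoculture (6.54 ± 0.16, adjusted p = 2.85e-11), and Bmp1, the procollagen C-proteinase, averaged 10.82 and 5.85 (4.98 ± 0.29). The meprin subunit Mep1b went the other way, at 2.47 in fibroblast and 10.70 in epithelium monoculture (-8.23 ± 0.28). Of the 20 activators and cell surface regulators tested, 8 were higher and 3 lower (55.0%, a share near the 50.7%). Plau, urokinase, averaged 8.94 in fibroblast and 3.40 in epithelium monoculture (5.53 ± 0.35), and Reck, a membrane inhibitor of metalloproteases outside the Timp family, averaged 6.88 and 3.64 (3.24 ± 0.23).

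Of the 17 non-collagen substrates tested, 9 were higher and 1 lower in fibroblast monoculture (58.8%, against 50.7%). Tenascin-C (Tnc) averaged 11.81 in fibroblast and 3.22 in epithelium monoculture (8.59 ± 0.39), and fibronectin (Fn1) 12.80 and 3.36 (9.44 ± 0.44). In adenoma Tnc averaged 3.78, under fibroblast monoculture by -8.03 ± 0.33, while Fn1 averaged 9.55.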
